A study of Mus musculus with 21 samples.

Results

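Cells of 3C cultures sorted as CD34+ or CD34neg, in both cases positive for alpha-6 integrin, were compared across every locus for which the deposited table of this comparison gives a test result. That left 11370 tested loci of 43943 in the table, after repeated lines of a locus were counted once. Both fractions came from mouse epidermal cells that had been grown for 10 to 14 days in 3C culture, a culture made for hair follicle stem cells (HFSCs), and each fraction was sequenced as 3 libraries, 6 of the 21 libraries of the series. The labels of these 6 libraries name cultured keratinocytes and give no genotype, strain or age, and no agent was named for them beyond the culture itself. The other libraries were wild-type HFSCs, wild-type total epidermal cells, wild-type cultured HFSCs, and 3C cultures given dorsomorphin or cyclopamine for 48 h. The stated question for the pair of fractions was which cells grow in these cultures.

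CD34 is a surface sialomucin that in mouse skin marks the stem cells of the hair follicle bulge, the niche at the base of the permanent part of the follicle. Alpha-6 integrin pairs with beta-4 integrin to anchor basal keratinocytes to the basement membrane, so sorting for it selects cells of the basal type. Bulge cells are kept quiet in the follicle by BMP and by low Wnt signalling, express Keratin 15, Sox9, Lhx2, Nfatc1 and Tcf7l1, and are surrounded by a matrix that they partly make themselves. Keratinocytes that leave the basal layer switch to Keratins 1 and 10, then build the cornified envelope with small proline-rich proteins, transglutaminases and protease inhibitors, while wounded or cultured keratinocytes make Keratins 6, 16 and 17.

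Each locus had 1 FPKM value per fraction (fragments per kilobase of transcript, scaled to the sequenced fragments), which the authors made from the 3 libraries of that fraction. No value per library, SD or read depth was analysed here, so a difference was read only through the authors' test, and called means that the authors' deposited table gives an adjusted p under 0.05. The labels do not say that the 3 libraries of a fraction came from separate cultures or animals, so these p-values may cover technical spread alone. The smallest p in the authors' deposited table was 5e-05, shared by 207 loci, and it corresponds to an adjusted p of 0.00275, so genes at that value are not ranked by significance among themselves. The lowest tested locus had 1.65 FPKM in its higher fraction. A gene that is near 0 in a fraction was therefore tested only if it was well above 0 in the other, and the counts of list members below refer to tested members alone. Levels of bulk fractions do not tell fewer expressing cells apart from less RNA per cell.

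The labelled fractions were first checked against their markers. Cd34, the gene of the sort antigen, was at 38.7 FPKM in the CD34+ fraction and 2.26 FPKM in the CD34neg fraction, 17.1-fold apart, as the sort required. Its locus in the table (chromosome 1, 194938819 to 195092249, GRCm38) spans 153431 bp and also holds Cd46, while the annotated Cd34 gene ends at 194961279, so reads of neighbours may enter its value. Krt15, the basal keratin most used to mark bulge cells (chromosome 11, 100131758 to 100135928), was at 62.4 against 10.7 FPKM, 5.84-fold higher in the CD34+ fraction. Bgn (chromosome X, 73483602 to 73495933), encoding the small leucine-rich proteoglycan biglycan, was at 59.2 against 1.4 FPKM, 42.2-fold higher. Krtdap (chromosome 7, 30787896 to 30791097), a secreted protein of differentiating keratinocytes, went the other way with 28.8 against 147 FPKM, 5.11-fold lower in the CD34+ fraction. For all 4 the authors' deposited table gives an adjusted p of 0.00275. Itga6, the alpha-6 integrin gene on which both fractions were gated, was at 346 and 327 FPKM (adjusted p = 0.84 in the authors' deposited table) and was not called.

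Promoter sequence is shown for members on either side of the comparison, so that the letters before the start of marker, bulge and cornification genes can be set side by side. RefSeq windows of 300 bases (250 before and 50 after a start, GRCm38.p6) matched 7700 of the 11359 tested symbols, 163 of the 236 called higher and 339 of the 536 called lower. The 120 bases before the start are printed 5' to 3' on the strand of the gene, in lower case, with capitals for 4 motifs searched on both strands: the TATA box TATAAA, the AP-1 site TGANTCA, the GC box GGGCGG and the TCF core CTTTGA. No motif overlapped another kind of motif in these stretches, and matches of the GC box may overlap each other. Cd34 (chr1:194938701-194938820, + strand), Bgn (chrX:73483481-73483600, + strand) and Lhx2 (chr2:38339161-38339280, + strand) were called higher in the CD34+ fraction, and Krtdap (chr7:30787785-30787904, + strand), Sprr1a (chr3:92485882-92486001, - strand) and Sprr2d (chr3:92339020-92339139, + strand) were called lower.
Cd34: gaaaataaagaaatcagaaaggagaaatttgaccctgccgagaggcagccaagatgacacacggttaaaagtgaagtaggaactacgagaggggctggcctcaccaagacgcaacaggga
Bgn: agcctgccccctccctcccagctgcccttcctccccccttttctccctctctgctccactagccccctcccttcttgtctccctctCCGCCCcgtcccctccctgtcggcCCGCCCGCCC
Lhx2: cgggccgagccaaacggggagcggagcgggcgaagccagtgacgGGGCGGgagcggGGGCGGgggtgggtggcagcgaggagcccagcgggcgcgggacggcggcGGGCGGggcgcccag
Krtdap: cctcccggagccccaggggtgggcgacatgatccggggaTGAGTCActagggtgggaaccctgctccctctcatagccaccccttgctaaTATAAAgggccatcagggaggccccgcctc
Sprr1a: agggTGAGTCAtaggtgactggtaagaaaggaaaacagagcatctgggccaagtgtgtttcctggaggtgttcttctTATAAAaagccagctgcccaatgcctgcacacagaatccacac
Sprr2d: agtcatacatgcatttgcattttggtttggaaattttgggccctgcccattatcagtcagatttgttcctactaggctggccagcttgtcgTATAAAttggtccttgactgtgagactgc

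In these 6 stretches, Cd34 held none of the motifs, Bgn and Lhx2 held 3 GC boxes each, and the cornification genes held TATA boxes that began at -30 (Krtdap), -43 (Sprr1a) and -29 (Sprr2d), counted from -1 at the last base before the start. Krtdap and Sprr1a also held an AP-1 site, at -81 and -116. The TATAAA letters were in 14.2% of the windows of all 27025 genes, 6.58% of tested, 6.75% of called higher and 9.73% of called lower genes. Among the differentiation and cornification genes called lower they were in 5 of 15 windows (Krtdap, Serpinb2, Sprr1a, Sprr2d and Sprr2h), and among the bulge genes called higher in 1 of 9 (Postn). TGANTCA was in 7.89% of all windows, 4.77% of tested, 7.98% of called higher and 9.44% of called lower genes, in 6 of those 15 windows (Krtdap, Serpinb2, Sprr1a, Sprr2d, Sprr2h and Stfa3) and in 1 of the 9 bulge windows (Nfix). The GC box was in 67.6% of tested windows, 69.9% of those called higher and 55.8% of those called lower, in 7 of those 15 windows, in 5 of the 9 bulge windows and in 9 of 9 windows of mitosis genes called higher. CTTTGA was in 11.4% of tested windows, in 18 of 163 windows of called higher and 41 of 339 of called lower genes, in 3 of those 15 windows (Klk7, Krtdap and Tgm1) and in 0 of the 9 bulge windows. The 4 motifs and the printed genes were chosen with the calls known, the Sprr genes are paralogs, and a match is a description of letters and not a measured site.

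Of the 11370 tested loci, 772 (6.79%) were called, 236 (2.08%) higher and 536 (4.71%) lower in the CD34+ fraction. The median called fold was 2.27 among the higher and 2.15 among the lower loci, and 163 and 359 of them were at least 2-fold apart. Among called named genes that reached 5 FPKM in either fraction the largest ratios were on the CD34+ side, where after Bgn came Serpina3n, an acute phase serine protease inhibitor, at 72.4 against 3.31 FPKM, then Cd34 and the heparan sulfate proteoglycan Gpc6 at 17.2 against 1.52 FPKM. On the CD34neg side the gene with the largest ratio under the same conditions, leaving out predicted genes and pseudogenes, was the chemokine Ccl8 at 37.3 against 195 FPKM, 5.24-fold. Over all tested loci the median log2 ratio, with 1 FPKM added to both values, was -0.07.

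Other large ratios on the CD34+ side came from genes of several functions. The ectoenzyme Enpp1, which generates pyrophosphate, was at 8.84 against 1.05 FPKM, and the microtubule-binding kinase Dclk1 at 13.2 against 1.95 FPKM. Tns1, the focal adhesion protein tensin-1, was at 7.74 against 1.21 FPKM, Pdzrn3 at 18.1 against 3.02 FPKM and Ptprn2 at 5.88 against 1.02 FPKM. On the CD34neg side the retinoic acid carrier Crabp2 was at 1.11 against 5.38 FPKM, while Lrat, which esterifies retinol, was at 5.12 against 1.97 FPKM and so higher in the CD34+ fraction. Some of the most abundant loci had nearly equal values: B2m was at 5975 and 5917 FPKM, mt-Co1 at 15836 and 13737 FPKM and Malat1, in a locus it shares with Gm37376, at 5059 and 4766 FPKM, none of them called. Others were further apart, such as the translation elongation factor Eef1a1 at 5798 and 10298 FPKM, not called (adjusted p = 0.31 in the authors' deposited table), and the ribosomal protein gene Rpl31 at 3638 and 7372 FPKM, called lower.

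**Figure D1:**
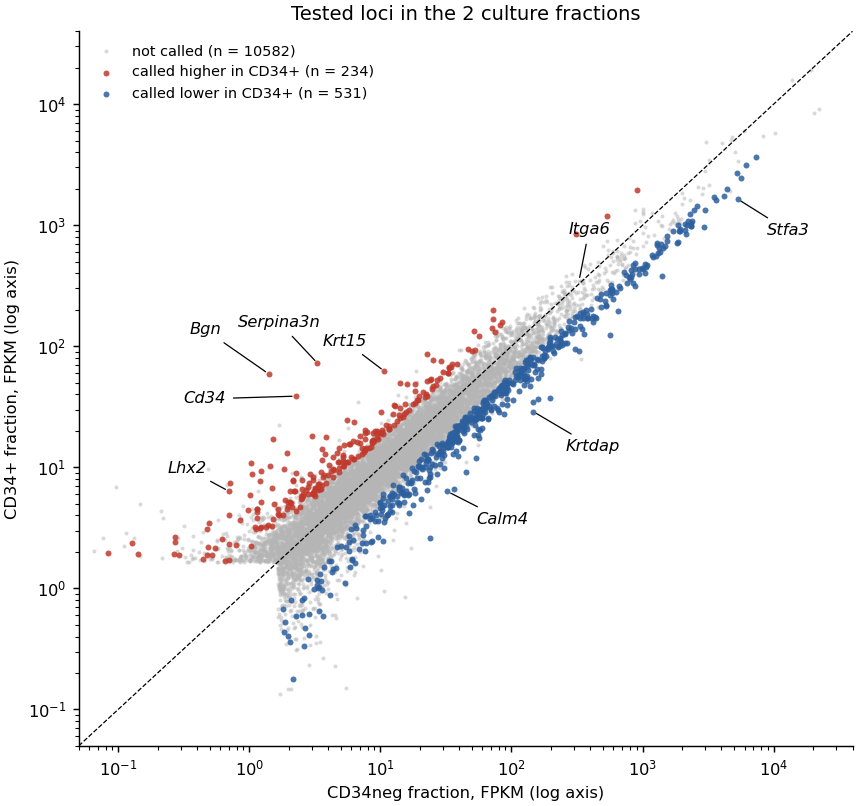
FPKM of each tested locus in the CD34neg fraction (x, log axis) and the CD34+ fraction (y, log axis), 1 point per locus, coloured by the authors' call, with the dashed line at equal values; the 23 loci listed at 0 in 1 fraction cannot be drawn on log axes. Bgn, Serpina3n, Cd34 and Krt15 lie far above the line, Stfa3, Krtdap and Calm4 below it, and Itga6 on it.

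Bulge stem cell genes had more calls higher in the CD34+ fraction than any other of the 43 lists. Of 28 genes, 21 were tested, 16 were called higher and 0 lower, against 2.08% called higher among all tested loci, and all 21 had the larger FPKM in the CD34+ fraction. Their median log2 ratio was 1.21, against -0.07 over all tested loci. Cd34 and Krt15, which identify the fraction, are among the 16, and the list was drawn up with earlier results of these data known, so its count is no independent evidence of a direction.

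Transcription factors of the bulge spanned a wide range of levels. Lhx2, a LIM homeobox factor that maintains the bulge, was at 6.36 against 0.695 FPKM, 9.15-fold higher in the CD34+ fraction (adjusted p = 0.00275 in the authors' deposited table). Nfatc1, which holds bulge stem cells in quiescence, was at 14.4 against 4.83 FPKM. Tbx1 was much lower in level, at 3.70 against 0.857 FPKM. Sox9, needed to specify and keep the stem cells, was well expressed in both fractions, at 67.6 and 34.7 FPKM, a 1.95-fold difference that was called (adjusted p = 0.017 in the authors' deposited table). The nuclear factor I genes Nfix (168 against 72.7 FPKM) and Nfib (94.9 against 46.6 FPKM) and the forkhead gene Foxc1 (10.3 against 5.21 FPKM) were about as far apart as Sox9. In the CD34neg fraction Lhx2 was at 0.695 FPKM, while Sox9, Nfib and Nfix were between 34.7 and 72.7 FPKM there.

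Secreted and matrix products of the bulge were called higher too. Postn, encoding the matricellular protein periostin, had the highest level of the list, 198 against 72.3 FPKM. Dkk3 (48.6 against 16 FPKM) and Sfrp1 (32.9 against 12.8 FPKM), secreted proteins of the Wnt pathway, and Npnt (6.40 against 2.2 FPKM), the nephronectin ligand of alpha-8 beta-1 integrin, were each called. The activin and BMP antagonist Fst was at 12.2 against 5.21 FPKM. Of the 5 tested members that were not called, Wif1 (2.43 against 0.798 FPKM), Id4 (3.39 against 0.959 FPKM) and Ptprz1 (2.80 against 1.44 FPKM) had adjusted p-values of 0.059, 0.053 and 0.055 in the authors' deposited table. Lgr5, a stem cell gene of the lower bulge and hair germ, was at 1.86 against 0.147 FPKM, a large ratio that was not called (adjusted p = 0.28 in the authors' deposited table).

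**Figure D2:**
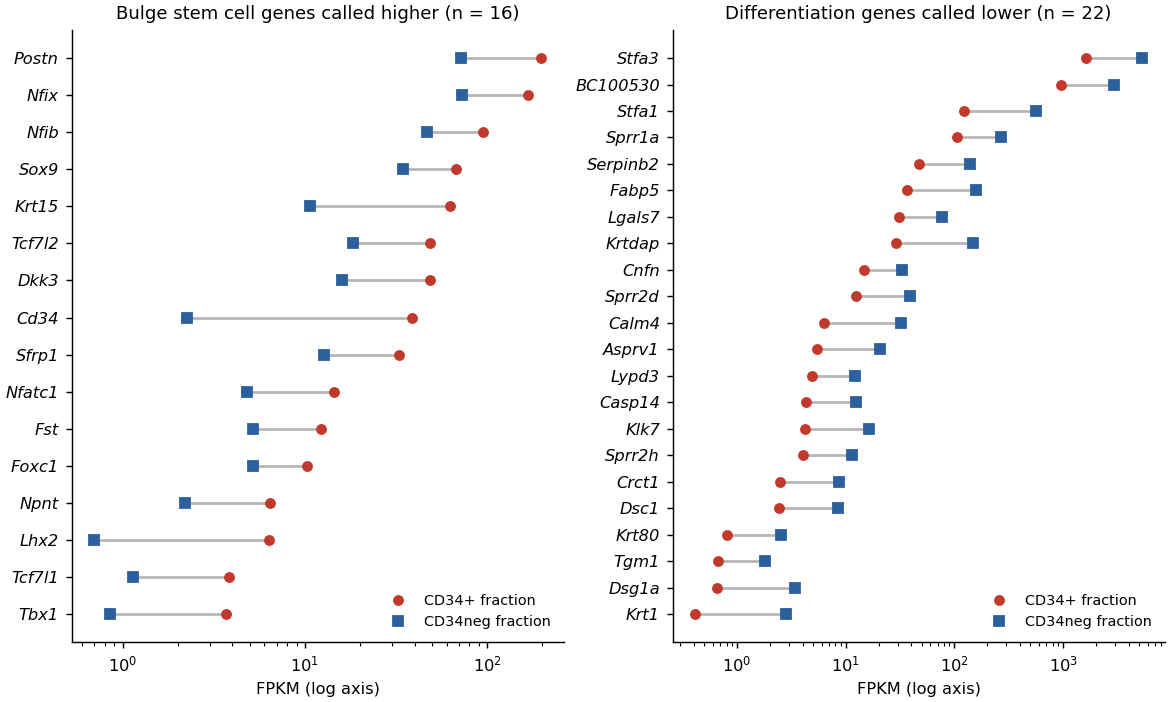
FPKM (log axis) in the CD34+ fraction (circles) and the CD34neg fraction (squares) for the 16 bulge stem cell genes called higher and for the 22 genes called lower from the suprabasal, cornified envelope and cornification enzyme lists; a grey line joins the values of a gene. Lhx2 and Cd34 have the longest lines on the left, and Stfa3 has the highest values on the right.

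Genes of the Wnt pathway, whose signal drives the hair germ and hair growth, leaned to the CD34+ fraction. Of 24 tested members 7 were called higher and 0 lower, beside 2.08% called higher among all tested loci, with a median log2 ratio of 0.78. The receptors Fzd2 (7.72 against 2.16 FPKM), Fzd1 (16.4 against 6.21 FPKM) and Fzd7 (52.1 against 24 FPKM) were called, and so were the nuclear effectors Tcf7l2 (48.7 against 18.3 FPKM) and Tcf7l1 (3.81 against 1.14 FPKM), which can repress Wnt targets in the absence of a signal. The remaining calls were Dkk3 and Sfrp1. Tcf7l1, Tcf7l2, Dkk3 and Sfrp1 are also counted in the bulge list. The target gene Axin2, often used as a readout of the pathway, was at 3.45 and 2.64 FPKM (adjusted p = 0.49 in the authors' deposited table), and beta-catenin, Ctnnb1, was at 224 and 200 FPKM (adjusted p = 0.63 in the authors' deposited table). Lef1, the nuclear effector of hair germ cells, was at 6.89 against 0.096 FPKM, but was not called (adjusted p = 0.25 in the authors' deposited table). Ligand genes were low: Wnt10a was highest at 18.6 and 14.0 FPKM (adjusted p = 0.30 in the authors' deposited table), and Wnt11, Dkk1, Dkk2 and Notum were listed at 0 in both fractions.

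Matrix genes of the CD34+ fraction formed a short set with large ratios. The counts below stand beside 2.08% called higher among all tested loci. The proteoglycan core protein genes Bgn, Gpc6 and Cspg4 (10.9 against 1.02 FPKM) were called higher, 3 of 14 tested, and 0 were lower. Sdc1 (67.0 against 79.1 FPKM) and Sdc4 (204 against 229 FPKM), the syndecans of keratinocytes, were not called. Of the matricellular genes 4 of 16 were called higher and 0 lower: Sparc (10.3 against 1.43 FPKM), Thbs1, encoding thrombospondin-1 (133 against 51.6 FPKM), Postn and Tnc, encoding tenascin-C (12.3 against 6.73 FPKM). Timp3, a tissue inhibitor of metalloproteinases, was at 85.6 against 22.8 FPKM, and the metalloproteinase Adam12 was at 12.2 against 5.97 FPKM; they were 2 of 18 tested proteases and inhibitors.

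Basement membrane components and their integrin receptors were tested as well, again beside 2.08% called higher among all tested loci. Of 21 integrin and laminin genes, 3 were called higher and 0 lower (Nid1 at 12.8 against 3.76 FPKM, Npnt, and Itgb4 at 151 against 81.9 FPKM), although all 21 had the larger value in the CD34+ fraction and their median log2 ratio was 0.45. Itgb4, the partner of the sort antigen alpha-6, was 1.84-fold higher in the CD34+ fraction (adjusted p = 0.042 in the authors' deposited table). The only call among 11 tested collagen genes was Col4a2, a basement membrane collagen chain, at 7.85 against 2.17 FPKM. Col17a1, the hemidesmosomal collagen of basal keratinocytes, was at 339 and 262 FPKM (adjusted p = 0.38 in the authors' deposited table).

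Markers of mesenchymal cells were read beside these matrix genes, since Bgn, Sparc and Cspg4 are also made by fibroblasts and pericytes. Of 16 fibroblast markers only Fbln1 was tested, at 10.9 and 6.03 FPKM (adjusted p = 0.086 in the authors' deposited table), and the list summed to 12.5 FPKM in the CD34+ and 7.46 FPKM in the CD34neg fraction. Lum, Thy1, Twist1 and Twist2 were listed at 0 in both fractions. Pdgfra was at 0.038 and 0.031 FPKM, Col1a1 at 0.39 and 0 FPKM, and Col3a1 at 0 and 0.18 FPKM. The endothelial and mural list summed to 17.7 and 10.1 FPKM, of which Cspg4 was 10.9 and 1.02 FPKM and Mcam 5.55 and 7.68 FPKM, and Des and Cdh5 were listed at 0 in both. Acta2, the smooth muscle actin that mural cells also make, belongs to the TGF-beta and YAP list and was called higher, at 31.8 against 12.9 FPKM (adjusted p = 0.00275 in the authors' deposited table). The part of such cells in the matrix gene values was not tested. Vim was at 0.931 and 0.927 FPKM.

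Markers of the remaining cell types had few tested members. In the list of immune markers 11 of 20 genes were at 0 in both fractions, among them Ptprc, Cd3e and Lyz2, and the list summed to 39.9 and 31.6 FPKM, most of it Epcam (27.8 and 20.7 FPKM), which follicle keratinocytes also make. Melanocyte markers Dct, Tyr, Tyrp1, Kit and Sox10 were at 0 in both, and the sum of 128 and 162 FPKM was nearly all Gpnmb (125 and 160 FPKM). In all, 7 of 11 melanocyte markers were at 0 in both. Merkel cell and neural markers, with 4 of 12 at 0 in both, summed to 2.95 and 1.52 FPKM, and muscle and erythroid markers, with 6 of 10 at 0 in both, to 3.47 and 5.32 FPKM. No member of these 4 lists was called.

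The general basal keratinocyte programme was present in both fractions. All 16 basal genes were tested, and 14 were not called. The calls were Itgb4 (higher) and the surface protein Ly6d (91.1 against 326 FPKM, lower), beside 6.79% called in either direction among all tested loci. The basal keratins Krt5 (3998 and 5039 FPKM) and Krt14 (3378 and 5315 FPKM) were not called, with adjusted p-values of 0.69 and 0.20 in the authors' deposited table. Trp63, the master regulator of stratified epithelia, was at 349 and 354 FPKM and Itgb1 at 249 and 242 FPKM. Simple epithelial keratins such as Krt8 and Krt18 were all at or under 0.31 FPKM in both fractions and none was tested.

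Genes of the suprabasal layers were lower in the CD34+ fraction. Of 14 tested suprabasal and early differentiation genes 10 were called lower and 0 higher, against 4.71% called lower among all tested loci, and all 14 had the smaller value there. Their median log2 ratio was -1.36. Besides Krtdap, Calm4, a calcium-binding protein of differentiating epidermis, was at 6.31 against 32.5 FPKM, and the fatty acid binding protein Fabp5 at 37.0 against 158 FPKM. The filaggrin-processing protease gene Asprv1 was at 5.47 against 20.5 FPKM, and the suprabasal cadherins Dsc1 (2.42 against 8.44 FPKM) and Dsg1a (0.655 against 3.43 FPKM) were also called. Krt1, the suprabasal keratin, was 6.92-fold lower but low in both fractions, at 0.409 and 2.83 FPKM, and its partner Krt10 was at 0.46 and 1.0 FPKM and was not tested.

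Cornification enzymes and protease inhibitors included genes of very high level. Of 15 tested members 7 were called lower and 0 higher, beside 4.71% called lower among all tested loci, with a median log2 ratio of -1.29. The stefin A genes, inhibitors of cysteine proteases, reached Stfa3 at 1638 against 5345 FPKM, BC100530 at 958 against 2966 FPKM and Stfa1 at 123 against 562 FPKM. These genes are close paralogs, and how their shared reads were divided is not given in the sources used here, so their separate values are uncertain. Klk7, a protease that sheds the cornified layer, was at 4.22 against 16.5 FPKM, Casp14, the caspase of cornification, at 4.31 against 12.3 FPKM, and transglutaminase 1, Tgm1, at 0.671 against 1.81 FPKM. The locus merged from Serpinb2 and Serpinb10 was at 47.1 against 139 FPKM.

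The cornified envelope itself was less uniform. Of 19 tested genes 5 were called lower (Sprr2d, Crct1, Sprr1a, Sprr2h and Cnfn) and 1 higher, Scel, encoding sciellin, at 2.16 against 0.543 FPKM. The counts of this paragraph stand beside 4.71% called lower and 2.08% called higher among all tested loci. Sprr1a, a small proline-rich precursor of the envelope, was the highest of them at 106 against 266 FPKM. Involucrin, Ivl, was at 1.91 and 2.28 FPKM (adjusted p = 0.72 in the authors' deposited table) and filaggrin, Flg, at 1.37 and 3.20 FPKM (adjusted p = 0.11 in the authors' deposited table). The late genes were mostly below testing: 25 of 44 members of the list were not tested, among them loricrin, Lor, at 0.20 and 0.40 FPKM. Of 13 tested barrier lipid genes 3 were called lower, led by Elovl4, the elongase of very long chain fatty acids, at 2.47 against 10.5 FPKM.

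Of 21 tested transcription factors of differentiation 1 was called, Hopx, lower at 3.81 against 8.61 FPKM, and the median log2 ratio was -0.10. That count is near the 4.71% called lower among all tested loci, of which 2.08% were called higher. Grhl3 was at 3.75 and 6.56 FPKM (adjusted p = 0.069 in the authors' deposited table), Klf4 at 26.3 and 20.3 FPKM and Ovol1 at 2.67 and 3.57 FPKM. In the Notch pathway, which promotes exit from the basal layer, only the ligand Jag2 was called among 10 tested genes, at 17.1 against 9.56 FPKM, and Notch1 was at 81.5 and 63.9 FPKM (adjusted p = 0.72 in the authors' deposited table). Of 24 tested junction genes 20 were not called, and the 4 calls, all lower, were Dsc1, Dsg1a, Dsg1b (6.13 against 18.5 FPKM) and the connexin Gjb6 (1.5 against 5.88 FPKM), while the basal desmosomal cadherins Dsg3 (131 and 122 FPKM) and Dsc3 (158 and 155 FPKM) were among the uncalled.

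**Figure D3:**
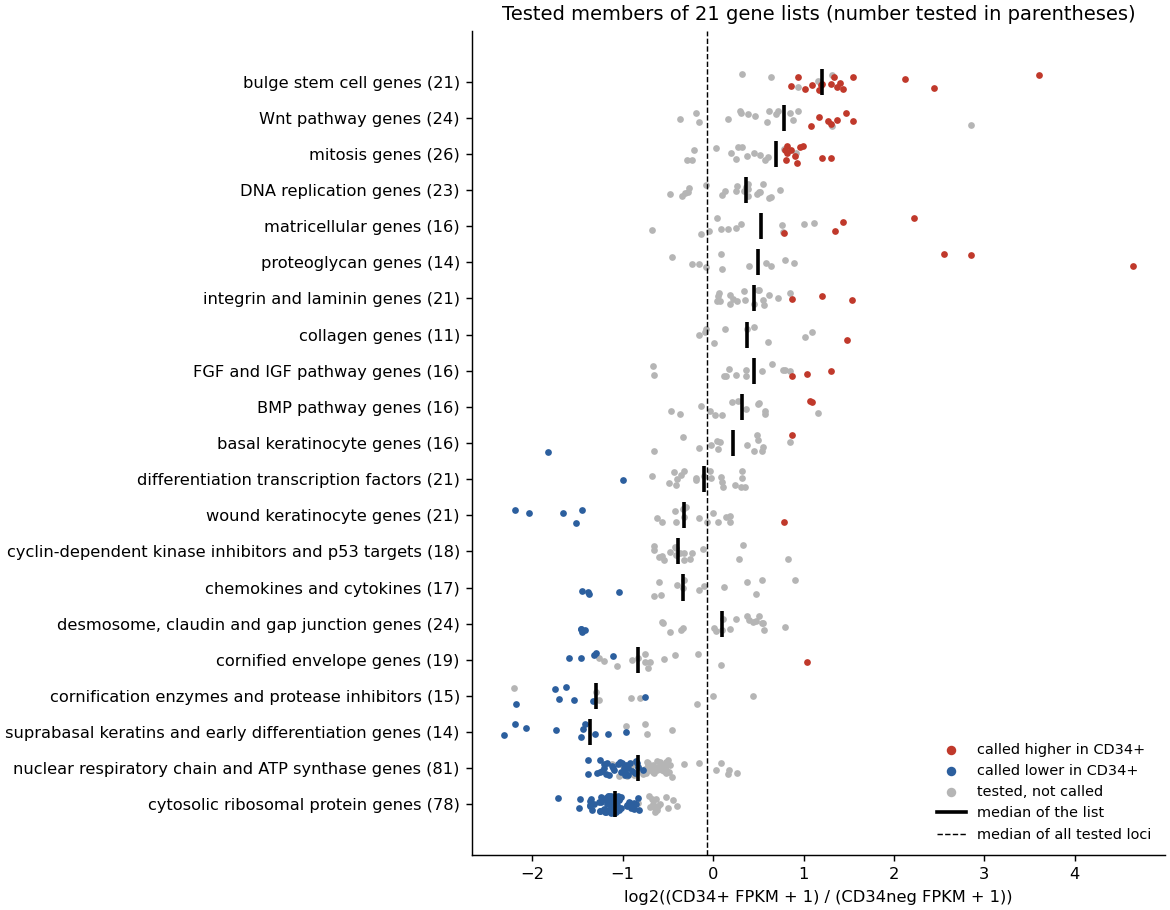
Log2 ratio of CD34+ to CD34neg FPKM (1 FPKM added to each) for the tested members of 21 lists, 1 point per gene, coloured by the authors' call; black bars are list medians and the dashed line is the median of all tested loci, -0.07. The bulge list lies to the right of that line with a median of 1.21, and the suprabasal list to its left with a median of -1.36.

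Wound-type keratins and their partners were partly lower in the CD34+ fraction. Krt6b was at 34.4 against 145 FPKM and Krt16 at 94.9 against 303 FPKM, and the calprotectin subunits S100a9 (9.10 against 45.0 FPKM) and S100a8 (9.90 against 30.3 FPKM) and the alarmin Il33 (0.877 against 4.15 FPKM) were the other calls in that direction, 5 of 21 tested. Tnc was the call in the opposite direction. Among all tested loci 4.71% were called lower. Krt6a, far more abundant than Krt6b at 827 and 1223 FPKM, and Krt17, at 151 and 186 FPKM, were not called, with adjusted p-values of 0.18 and 0.37 in the authors' deposited table. Krt6a and Krt6b are near-identical copies whose reads may be divided uncertainly. The median log2 ratio of the list, -0.32, became 0.0064 once the trend with exonic length described further on was subtracted, so no direction is given for the list.

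Some signals to immune cells were also lower in the CD34+ fraction. Tslp, the cytokine with which keratinocytes activate dendritic cells, was at 400 against 1041 FPKM, Il24 at 5.14 against 15.1 FPKM and the chemokine Ccl7 at 63.7 against 133 FPKM. With Il33 these made 4 calls lower of 17 tested chemokines and cytokines, and 0 higher, beside 4.71% called lower among all tested loci. The median log2 ratio of that list, -0.34, became -0.038 once the trend with exonic length described further on was subtracted. No direction is therefore given for the list. Ccl2 was at 352 and 532 FPKM and was not called (adjusted p = 0.12 in the authors' deposited table). Antimicrobial genes had 3 calls of 9, S100a8, S100a9 and the beta-defensin Defb1 (159 against 415 FPKM). Their median log2 ratio of -0.93 became -0.51 under the same subtraction. Of 19 interferon and antigen presentation genes the calls were Cxcl10 (13 against 35.9 FPKM) and Isg15 (2.09 against 6.81 FPKM), both lower. Saa3 was at 0.843 against 15.4 FPKM without a call (adjusted p = 0.21 in the authors' deposited table).

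Of 26 tested genes of mitosis 11 were called higher in the CD34+ fraction and 0 lower, beside 2.08% called higher among all tested loci, with a median log2 ratio of 0.70, and 23 of the 26 had the larger value there. Tpx2, a spindle assembly factor, was at 20.2 against 7.58 FPKM, the decatenating enzyme Top2a at 66.1 against 33.3 FPKM, the ubiquitin-conjugating enzyme Ube2c at 70.8 against 35.1 FPKM, and the proliferation antigen Mki67 at 14.4 against 7.76 FPKM. Foxm1, the transcription factor of the mitotic programme, was at 19.5 against 7.88 FPKM in a locus merged with a neighbouring gene. The cyclin genes Ccnb1 (36.6 and 31.8 FPKM) and Ccnb2 (26.3 and 32.4 FPKM) and their kinase Cdk1 (44.2 and 51.1 FPKM) were not called, and Ccnb2 and Cdk1 had the smaller value in the CD34+ fraction. Among 23 tested DNA replication genes 0 were called (3 higher and 0 lower at an unadjusted p under 0.05 in the authors' deposited table), with Pcna at 212 and 256 FPKM and Mcm6 at 75.5 and 52.6 FPKM. Likewise 0 of 18 cyclin-dependent kinase inhibitor and p53 target genes were called, with 1 higher and 4 lower at an unadjusted p under 0.05 in the authors' deposited table. Cdkn1a was at 339 and 457 FPKM (adjusted p = 0.27 in the authors' deposited table).

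Other signalling lists had 1 to 3 calls higher each and 0 lower, larger shares than the 2.08% called higher among all tested loci. These shares rest on few calls and were not tested. In the BMP pathway Id2 (17.1 against 7.63 FPKM) and Fst were called higher of 16 tested, while the target Id1 was at 20.4 and 16.7 FPKM (adjusted p = 0.51 in the authors' deposited table) and the receptor Bmpr1a at 88.3 and 87.4 FPKM. In the Hedgehog pathway the coreceptor Boc was called, at 3.27 against 1.5 FPKM, 1 of 9 tested. Gli1 was at 0.014 FPKM in both fractions and Shh at 0. Among FGF and IGF genes Etv5 (15.7 against 5.77 FPKM) and Dusp6 (19.4 against 10.1 FPKM), transcriptional targets of ERK signalling, and the receptor Fgfr1 (19.8 against 9.16 FPKM) were 3 calls higher of 16. The EGF receptor ligand Tgfa was at 22.3 against 12.6 FPKM, the only call of 10 in its family. Acta2 (31.8 against 12.9 FPKM), smooth muscle actin, and the receptor kinase Axl (60.1 against 33.0 FPKM) were called of 21 TGF-beta and YAP genes, and Ctgf (5.57 against 2.04 FPKM) was not (adjusted p = 0.17 in the authors' deposited table).

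The counts of the metabolic and stress lists stand beside 2.08% called higher and 4.71% called lower among all tested loci. In lists of this size, 0 calls is near those shares. All 22 cholesterol synthesis genes, 20 integrated stress response genes and 15 immediate early genes tested were not called, the first with 17 of 22 values smaller in the CD34+ fraction. At an unadjusted p under 0.05 in the authors' deposited table they had 2, 0 and 2 genes higher and 3, 3 and 1 lower, in that order. Of 27 hypoxia and glycolysis genes the calls were carbonic anhydrase 9, Car9 (30.7 against 14.2 FPKM), and Gapdh (841 against 308 FPKM), both higher. The other 25 were not called, and 16 of the 27 had the larger value in the CD34+ fraction. Gapdh has many processed copies in the mouse genome. Ldha was at 2066 and 2635 FPKM, Pgk1 at 476 and 650 FPKM and Eno1 at 1093 and 949 FPKM. Among detoxification genes Gstm1 was higher (28.9 against 10.1 FPKM) and Gsta4 lower (28.4 against 80.0 FPKM).

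Of the hair lineage lists, hair germ and outer root sheath genes had 2 calls of 9, Runx1 higher (131 against 75.2 FPKM) and Pthlh lower (1.15 against 3.50 FPKM). Among all tested loci 2.08% were called higher and 4.71% lower, and the counts of these lists rest on 1 or 2 calls each. The shaft gene regulator Hoxc13 was called higher (16 against 6.6 FPKM), the 1 call of 4 tested hair shaft and inner root sheath genes. Hair keratins such as Krt31, Krt35 and Krt71 were listed at 0 or under 0.1 FPKM. Sebaceous and upper follicle genes had 1 call of 12, Mgst1 (71.1 against 150 FPKM, lower). Krt79, of the upper follicle, was at 0 in both fractions.

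Several families of housekeeping genes had a larger share of calls lower than the 4.71% of all tested loci. These families were added by name after their values had been seen. Of 78 tested cytosolic ribosomal protein loci 62 were called lower and 0 higher, all 78 had the smaller value, and the median log2 ratio was -1.09. Rps14 was at 196 against 648 FPKM and Rpl9 at 992 against 2349 FPKM. Of 81 nuclear respiratory chain and ATP synthase genes 31 were called lower, for example Uqcr11 at 29.7 against 79.0 FPKM and Cox6b1 at 97.9 against 227 FPKM. Proteasome subunits had 10 calls lower of 37 tested, and mitochondrial ribosomal proteins 8 of 79. Transcripts of the mitochondrial genome did not share that direction: of 10 tested loci 2 were called higher, mt-Co2 (1184 against 531 FPKM) and the locus of mt-Nd4 and mt-Nd4l (1946 against 913 FPKM). Ribosomal protein genes have many pseudogene copies that share their reads, and 154 of the 536 loci called lower have ribosomal protein, predicted gene or pseudogene names.

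The ratio between the fractions moved with transcript length. Over 11343 tested loci with an exonic length in GENCODE vM21, the Spearman correlation of the log2 ratio with length was 0.355 across loci that share the same pair of FPKM columns. Called-higher loci had a median exonic length of 6344 nt and called-lower loci 1732 nt, against 4213 nt over the loci tested. When these loci were ranked by length and divided into 10 classes of equal size, the shortest class (57 to 1190 nt) had 1 locus of 1135 called higher and 165 lower, and the longest had 43 higher and 5 lower. With loci of at least 2000 nt alone, 229 were called higher and 234 lower, so that 49.5% of calls were higher, against 30.6% over all loci. The median exonic length of the ribosomal protein list was 1776 nt, of the cornified envelope list 752 nt, of the suprabasal list 2471 nt, of the bulge list 4589 nt and of the mitosis list 4516 nt.

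With the running median of the ratio along length subtracted, the list medians became 1.23 for the bulge genes, 0.66 for the mitosis genes, 0.66 for the Wnt genes, -1.19 for the suprabasal genes, -1.09 for the cornification enzymes, -0.55 for the envelope genes, -0.75 for the ribosomal proteins and -0.49 for the respiratory chain. Each of the 236 and 536 called loci kept the direction of its ratio under that subtraction. It could hardly have been otherwise, since the smallest called folds were 1.71 (higher) and 1.65 (lower). The median log2 ratio ran only from -0.50 in the shortest length class to 0.16 in the longest. The kept directions therefore do not show that the calls are free of the length trend. Ribosomal RNA loci also differed: Rn18s-rs5 was at 8374 and 20382 FPKM and the overlapping Yam1 at 9105 and 22273 FPKM (adjusted p = 0.61 for each in the authors' deposited table), in fractions whose FPKM values summed to 511143 and 679559. The part of length and of ribosomal RNA in the calls was not tested.

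**Figure D4:**
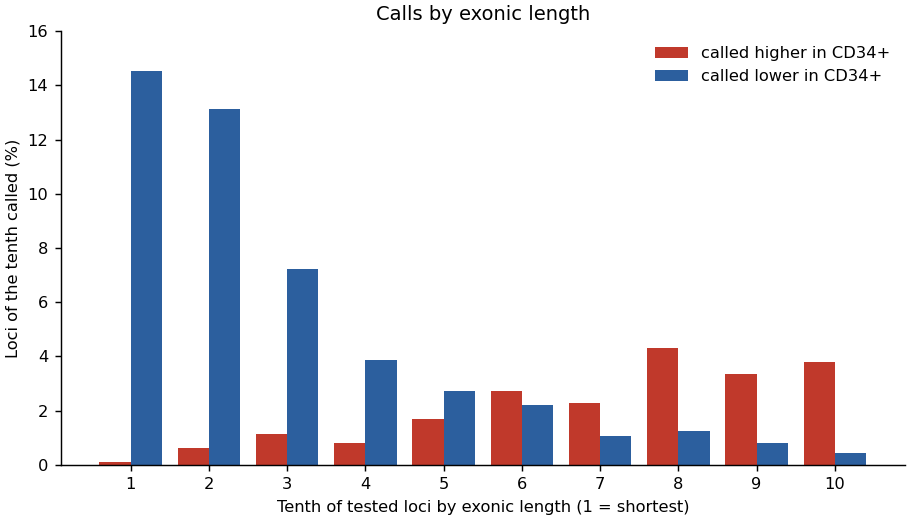
Percent of tested loci called higher and called lower in the CD34+ fraction (y) in 10 classes of equal size by exonic length (x, 1 is the shortest). Calls lower were most frequent in the short classes (165 of 1135 in the first), and calls higher in the long ones (43 of 1135 in the last).

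The called loci were then looked up in the other deposited tables, which were made from other libraries and normalised separately. The table of 3 populations names its columns CD34a6, HFSC and bulk. Bulk is taken to be the total epidermal cells. The labels do not tie the other columns to the sorted or the cultured population, so their names are kept. The column name HFSC is therefore not to be read as cells sorted directly from skin. In CD34a6 against bulk 22% of 14441 tested loci were called higher and 24.3% lower. Of the 236 loci called higher in the CD34+ culture fraction 226 were tested there, and 161 (71.2%) were called higher and 16 (7.08%) lower, with a median log2 ratio of 1.43. Of the 536 called lower 513 were tested there, and 11 (2.14%) were called higher and 395 (77.0%) lower. The 161 loci are 5.07% of the 3173 called higher in CD34a6, and the 395 are 11.2% of the 3516 called lower.

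HFSC against bulk shares its bulk libraries with that comparison. There 19% of 14035 loci were called higher and 24.7% lower. Of 230 tested loci from the CD34+ side 107 (46.5%) were called higher and 44 (19.1%) lower, and of 521 from the CD34neg side 42 (8.06%) were higher and 303 (58.2%) lower. Of the 28 bulge list members 25 were called higher and 1 lower in CD34a6, while of 27 tested in HFSC 5 were higher and 11 lower. Lhx2 was at 270 FPKM in CD34a6, 2.06 in HFSC and 7.91 in bulk. Bgn was at 477, 10.5 and 24.4 FPKM in the same order, Sparc at 234, 3.49 and 42.5 FPKM, and Nfatc1 at 106, 5.78 and 11.7 FPKM. Krt15 was at 9923, 37.9 and 4791 FPKM, not called between CD34a6 and bulk (adjusted p = 0.069 in the authors' deposited table).

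Some genes with large ratios between the culture fractions were not called higher in CD34a6 than in bulk. Serpina3n had no test in CD34a6 against bulk, and was at 6.37 FPKM in HFSC and 0.066 in bulk. Dclk1, 13.2 against 1.95 FPKM between the fractions, was at 0.306 FPKM in CD34a6, 0.508 in HFSC and 0.427 in bulk and was called in neither comparison. Slc38a4, an amino acid transporter at 7.46 against 0.718 FPKM between the fractions, was at 13.6, 6.03 and 17.0 FPKM in CD34a6, HFSC and bulk. Thbs1 was at 5.35 and 4.65 FPKM in CD34a6 and bulk, not called, and at 179 FPKM in HFSC. Wound-type genes on the CD34neg side were nearly absent from CD34a6: Krt6b was at 0.285, 374 and 2.89 FPKM and Krt16 at 0.973, 1058 and 18.9 FPKM in the same order. Cytosolic ribosomal protein genes were lower than bulk in both, 64 of 77 in CD34a6 and 54 of 77 in HFSC. In these comparisons too the log2 ratio rose with exonic length, with a Spearman correlation across loci of 0.306 for CD34a6 and 0.272 for HFSC.

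In 3C cultures given dorsomorphin, described in the series text as depleting HFSCs, against cyclopamine, described as enriching them, few loci were called at all: 1.26% of 11505 higher and 1.31% lower. Of 218 tested loci from the CD34+ side 14 (6.42%) were higher and 11 (5.05%) lower with dorsomorphin, and of 525 from the CD34neg side 6 (1.14%) were higher and 18 (3.43%) lower. Krt15 was at 3.61 FPKM with dorsomorphin and 20.6 with cyclopamine (adjusted p = 0.0048 in the authors' deposited table). Postn at 15.3 and 34.9 FPKM, Sfrp1 at 6.44 and 9.82 FPKM, Cspg4 at 0.723 and 1.90 FPKM and Timp3 at 12.0 and 22.3 FPKM were also called lower with dorsomorphin. These genes are among the 11 lower loci of the CD34+ side, and the 14 higher loci are not named here, so the examples show no common direction. Cd34 itself was at 6.87 and 11.7 FPKM and was not called (adjusted p = 0.053 in the authors' deposited table). Neither Bgn (19.5 and 15.9 FPKM), Lhx2 (1.14 and 1.54 FPKM), Sox9 (50.6 and 47.2 FPKM) nor Krtdap (674 and 643 FPKM) was called. Stfa3 (1262 and 1986 FPKM) and Tslp (405 and 1543 FPKM), which were lower in the CD34+ fraction, were lower with dorsomorphin as well.

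**Figure D5:**
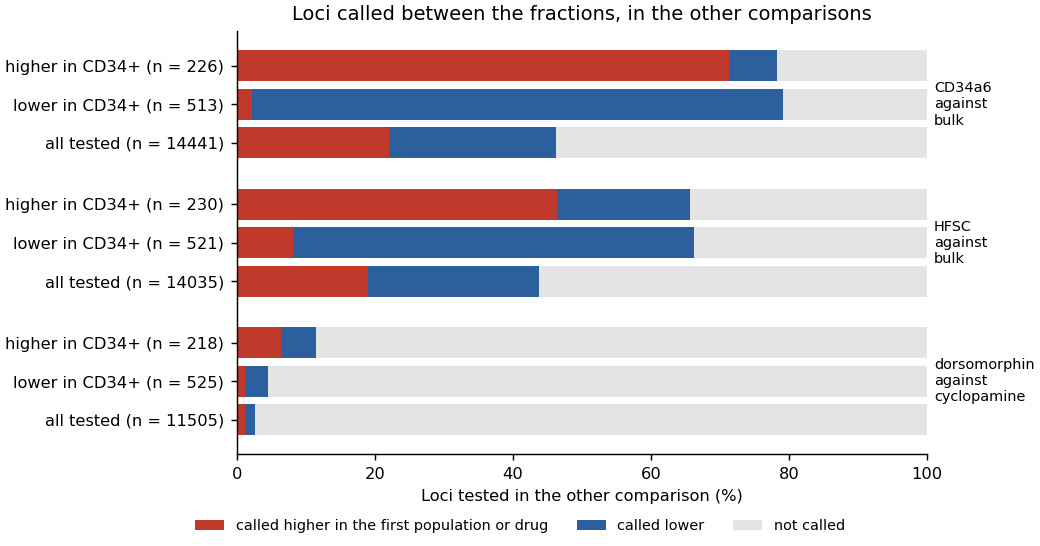
Percent of loci called higher, called lower and not called in 3 other comparisons, for loci called higher or lower in the CD34+ culture fraction and for all loci tested there. In CD34a6 against bulk 71.2% of the CD34+ loci were called higher and 77.0% of the CD34neg loci lower, and with the drugs most loci of either kind were not called.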

How the data were processed

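Libraries were made with a directional RNA kit, per the labels' protocols. The submitters' processing notes list DESeq2 1.8.1, featureCounts (Subread 1.4.2), TopHat2 2.0.13, cutadapt 1.5 and FastQC 0.11.2 with the build GRCm38 for these 6 libraries, while the deposited table has a Cuffdiff layout per the file headers, so which tool made the p-values is not settled. The authors deposited 1 FPKM value per locus and fraction, its log2 fold, a p-value and an adjusted p-value, and a test statistic (a score, deposited by the authors and not used). How FPKM were scaled is not given in the sources used here. FPKM, log2 fold and p-value columns of the other tables were deposited by the authors in the same layout. The annotated GO terms printed in the closing section are those in the deposited table.

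From these, repeated lines of a locus were counted once (12256 tested lines, 886 repeats dropped). The deposited adjusted p-values equalled a Benjamini-Hochberg adjustment over the 11370 loci left, to within 5.3e-07. Log2 ratios were recomputed with 1 FPKM added, and signs set so that positive means higher in CD34+. Exonic lengths are GENCODE vM21 unions, and the length trend is a running median over 501 loci. Calculations ran in Python 3.11.15 with pandas 2.3.3. The adjustment was checked on simulated p-values, and the collapse of repeats and the log2 ratio on altered copies of the real values. Other steps, such as the length trend, were not checked in this way. Planned tests on values per library could not be made, since the table holds none, so calls are the authors' at an adjusted p under 0.05. Depth per library was unknown. The 6 libraries were grouped by their titles.

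The members, the 43 gene lists (1009 memberships) and the 5 name-based families were chosen with earlier results of these data known. Most named genes are the markers, the 15 largest folds each way among called loci of at least 5 FPKM, up to 5 listed at 0 in a fraction, the 10 highest loci, and list members. Others were chosen after their values were seen. Loci of several symbols (293 tested) have shared values.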

Additional observations from a re-analysis of the deposited data

How the results depend on the processing

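With an adjusted p under 0.01 in place of 0.05, 82 loci were higher and 215 lower in the CD34+ fraction, against 236 and 536. A Bonferroni threshold left 0 and 0, which follows from the smallest deposited p of 5e-05. Of the tested loci 988 were larger and 1578 smaller in the CD34+ fraction at a p under 0.05 without adjustment, taken from the authors' deposited table. Restricting the calls to loci of at least 2000 nt of exonic length, chosen after seeing the data, left 229 higher and 234 lower. Requiring 2-fold (163 and 359) or loci of 1 symbol (230 and 523), or keeping repeated lines (250 and 588), stayed within 1.5 times. So did leaving out ribosomal protein, predicted and pseudogene names (229 and 382, also chosen after seeing the data). A minimum of 1 FPKM could change no call, since every tested locus had at least 1.65 FPKM in its higher fraction. Of 40 list medians, 3 changed sign when the length trend was subtracted: wound keratinocyte genes to 0.0064, integrated stress response genes to 0.055 and immediate early genes to 0.091. Centring on the median of all loci turned the last list to 0.014. Adding 0.1 or 5 FPKM in place of 1 changed no sign of a list median. No paired analysis was possible because the table holds no value per library, and for the same reason no library could be left out in turn. Depth was unknown, so a gene that was not called is not shown to be equal in the fractions.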

Other observations

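Genes outside the lists, chosen after their values were seen, added receptors, transporters and regulators to the CD34+ side. The GDNF receptor genes Ret (1.93 against 0.268 FPKM) and Gfra1 (1.97 against 0.083 FPKM) were both called higher at low levels. Transporters called higher included the taurine transporter Slc6a6 (75.4 against 29.2 FPKM), the zinc and manganese transporter Slc39a8 (50.1 against 14.1 FPKM) and the amino acid transporter Slc7a8 (9.26 against 1.23 FPKM). The copper-binding ferroxidase ceruloplasmin, Cp, was at 76.9 against 25.4 FPKM. Nuclear regulators called higher included the vitamin D receptor Vdr (61.5 against 30.0 FPKM) and its corepressor hairless, Hr (36.2 against 19.3 FPKM), both needed for hair cycling, the DNA methyltransferase Dnmt1 (14.5 against 7.20 FPKM) and Foxo1 (11.8 against 6.28 FPKM). Wfdc18 (2.33 FPKM) and Cd59b (1.87 FPKM) were called and listed at 0 in the CD34neg fraction, and Orm1 (2.31 FPKM) was listed at 0 in the CD34+ fraction.

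Among genes chosen after their values were seen, these enzymes of glutathione and peroxide metabolism were called lower in the CD34+ fraction, while Gstm1 was called higher (28.9 against 10.1 FPKM): Gpx1 (281 against 624 FPKM), Prdx2 (141 against 285 FPKM), Gstp1 (16.3 against 34.9 FPKM), Mgst2 (9.99 against 23.7 FPKM) and Mgst3 (13.7 against 30.2 FPKM). The apolipoprotein gene Apoc1 (59.4 against 167 FPKM) and the mitochondrial cholesterol-binding protein gene Tspo (32.5 against 92.4 FPKM) were also called. Lars2, the mitochondrial leucyl-tRNA synthetase, was at 378 against 1396 FPKM, and the small nuclear RNA Rn7sk at 27.7 against 88.1 FPKM. Among 340 GO terms of the deposited table with at least 50 tested loci, the proteinaceous extracellular matrix had the largest share of loci called higher (13 of 64, 20.3%), and the cytosolic large ribosomal subunit the largest share called lower (36 of 55, 65.5%). These shares are descriptions and were not tested.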
